A study of Mus musculus with 32 samples.

Results

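The choroid plexus genes described here were 10 of the 53715 genes in the deposited gene tables, *Ttr*, *Mfrp*, *Kl*, *Folr1*, *Kcnj13*, *Clic6*, *Otx2*, *Cldn2*, *Sostdc1* and *Steap1*, taken from a list of genes of that tissue by their GENCODE M21 symbols. They were chosen by earlier values of these data, in which *Mfrp* stood out in the DM amygdala against *Kdm5c*-KO, so that the amygdala values of both genotypes had been used, and the other 9 were taken for their place in the same tissue. Polyadenylated RNA was sequenced from 2 brain regions, amygdala and hippocampus, of 16 adult males, 4 of each genotype (32 libraries). WT, *Kmt2a*-HET (*Kmt2a*+/-), *Kdm5c*-KO (*Kdm5c*-/y) and double-mutant (DM, *Kmt2a*+/- with *Kdm5c*-/y) mice were all F1 hybrids of 129S1/SvImJ fathers and C57BL/6J mothers, and received no treatment that the labels name. Both mutant alleles were carried in the germline, so that every cell type of a mutant held them, and the tissue was a dissected region in which cell types were not separated. The design asks how a missing copy of *Kmt2a*, a writer of H3K4 methylation, and loss of *Kdm5c*, an eraser of that mark, act alone and together.

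The choroid plexus is a frond of epithelium around leaky capillaries that hangs in the brain ventricles and secretes cerebrospinal fluid. Its epithelial cells carry thyroid hormone and folate into that fluid, move ions and water through channels and transporters, and seal the passage between cells with claudins. The homeobox factor OTX2 sets up the fate of these cells and is kept on in the adult tissue. *Mfrp*, a membrane frizzled-related protein, is best known from the retinal pigment epithelium, where its loss is tied to small eyes and photoreceptor degeneration, and is made in the choroid plexus too.

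*Mfrp* lies on chromosome 9 (mm10, 44101729 to 44109187, plus strand), and the end of the gene overlaps *C1qtnf5* on the same strand (44107245 to 44109187). *Kmt2a* lies on the same chromosome, 0.694 Mb away. On the same build, *Kl* spans 150952607 to 150993817 on chromosome 5 (plus strand), *Clic6* 92485736 to 92541243 on chromosome 16 (plus strand), where it overlaps *2410124H12Rik* on its own strand, and *Otx2* 48657677 to 48673819 on chromosome 14 (minus strand), where it overlaps the antisense RNA *Otx2os1*. *Kcnj13* (chromosome 1, 87386363 to 87394729, minus strand) lies within the span of *Gigyf2* on the opposite strand. The bases just before the annotated start of 3 of the genes are shown because OTX2, a member itself, binds the core TAATCC, here searched on both strands (GGATTA on the other) in the 250 bases before each start. The sequences are from RefSeq (GRCm38.p6), 5′ to 3′ on the gene's own strand, without bases in an annotated exon, and capitals mark a match. The *Mfrp* stretch spans chr9:44101520-44101728 on the plus strand, that of *Kcnj13* spans chr1:87394730-87394979 on the minus strand, and that of *Cldn2* spans chrX:139800558-139800807 on the plus strand.

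Mfrp: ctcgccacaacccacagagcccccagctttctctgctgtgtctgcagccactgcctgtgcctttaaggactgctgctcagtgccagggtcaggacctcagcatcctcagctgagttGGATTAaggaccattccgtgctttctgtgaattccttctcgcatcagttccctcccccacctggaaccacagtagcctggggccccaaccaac
Kcnj13: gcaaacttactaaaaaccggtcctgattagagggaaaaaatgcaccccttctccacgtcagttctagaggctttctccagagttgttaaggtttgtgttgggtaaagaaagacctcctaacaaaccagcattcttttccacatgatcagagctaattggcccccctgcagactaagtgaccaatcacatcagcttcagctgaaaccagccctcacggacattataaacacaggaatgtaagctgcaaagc
Cldn2: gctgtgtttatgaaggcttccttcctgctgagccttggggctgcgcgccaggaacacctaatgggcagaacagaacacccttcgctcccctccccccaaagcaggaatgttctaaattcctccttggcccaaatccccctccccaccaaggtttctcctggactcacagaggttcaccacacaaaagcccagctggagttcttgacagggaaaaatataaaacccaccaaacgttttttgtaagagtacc

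The *Mfrp* stretch held 1 match, and those of *Kcnj13* and *Cldn2* held 0. Of the 6 members with a promoter entry, 2 had a match, *Mfrp* and *Otx2* itself, whose matching window lies in an annotated exon and is not shown. That is 2 of the 9 windows of members. Over all 32817 promoter windows, 6.25% held the core. A match is a run of letters and does not show that the factor binds there, and the absence of a match says only that these letters are not in the window. *Ttr*, *Folr1*, *Clic6* and *Sostdc1* had no entry.

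Amygdala libraries held 19215503 to 26033615 gene counts and hippocampal libraries 19322262 to 27798980, so that 3 counts stood for 0.108 to 0.156 CPM (counts scaled to a fixed library total), a floor that covers counting error only. Values below are normalised counts, the expected counts of the authors divided by size factors over all 32 libraries. At the level of the whole gene the targeted genes checked little, since counts of the undeleted exons remain in the tables. *Kdm5c* was at 1570.4 ± 324 in WT amygdala and at 1259 ± 94.3 in *Kdm5c*-KO amygdala, and *Kmt2a* at 4076 ± 1459 in WT and 4107 ± 476 in *Kmt2a*-HET amygdala (SD, n = 4). The summed level of 7 hippocampal neuron genes was 8658 to 32623 in the hippocampal libraries and 1682 to 4654 in the amygdala libraries, without overlap. The sum of 6 amygdala neuron genes overlapped between regions, with 3359 to 10210 in amygdala and 3547 to 6096 in hippocampal libraries, so that the amygdala label was not separated by that list.

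In the amygdala, 2 libraries stood apart in these genes. All 10 members had their highest amygdala value in DM replicate 1, and 9 of 10 had the next highest in DM replicate 3. In the hippocampus all 10 were highest in *Kdm5c*-KO replicate 1, and 8 of 10 were next highest in DM replicate 4. DM replicates 1 and 3, high in the amygdala, were not among the high hippocampal libraries. DM replicates 2 and 4, high in the hippocampus, were near the other genotypes in the amygdala. For *Mfrp*, *Kl* and *Kcnj13*, however, DM replicate 2 was above every amygdala library of the other genotypes.

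**Figure D1:**
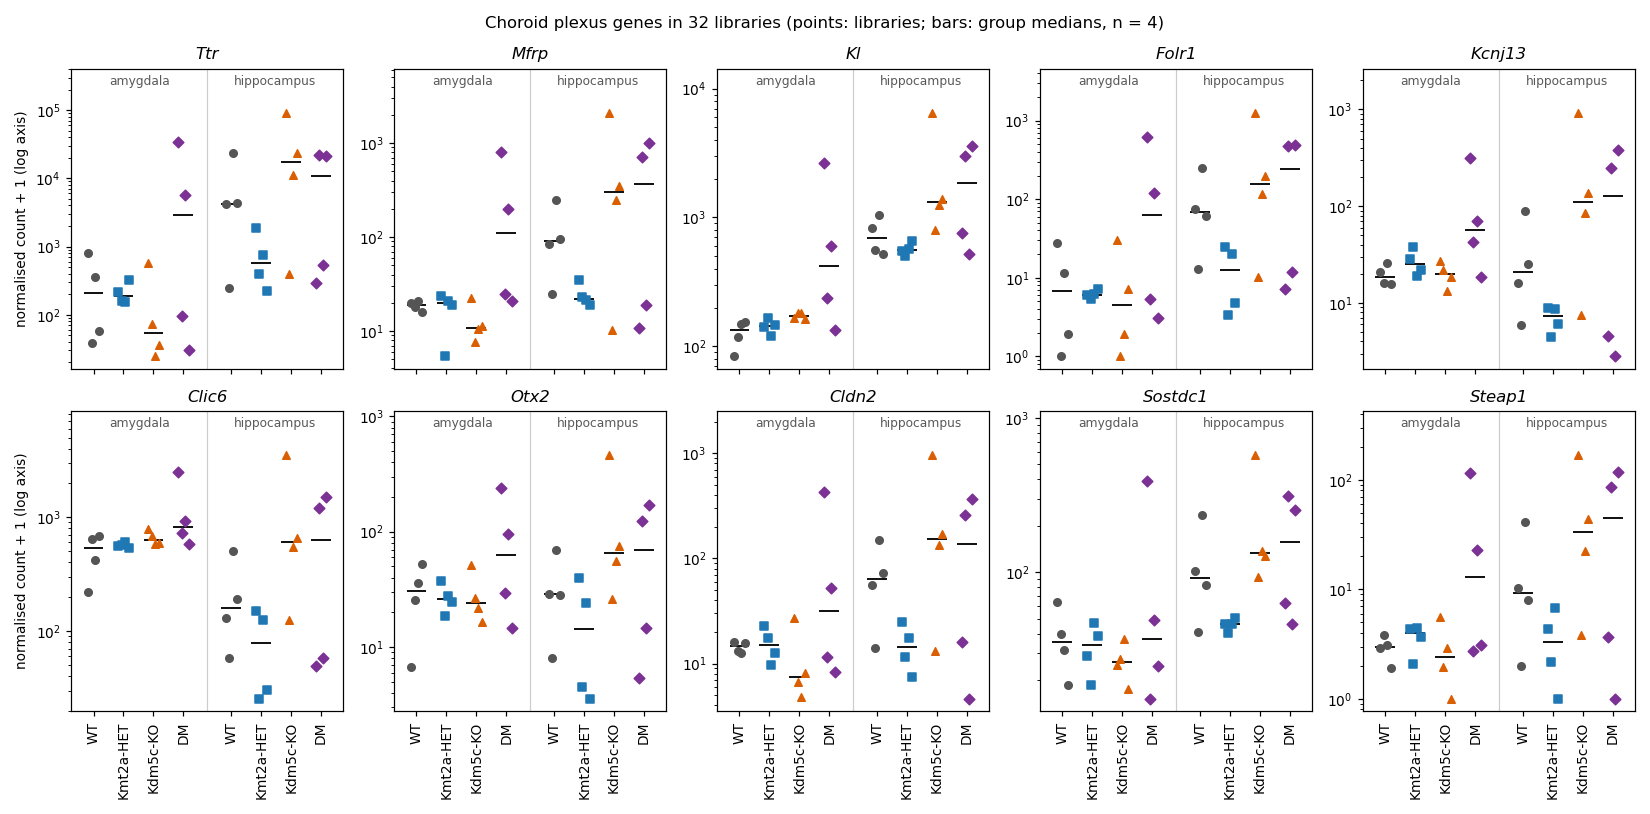
Normalised counts of the 10 choroid plexus genes on a log axis (normalised count + 1), 1 panel per gene, with 1 point per library, the amygdala and the hippocampus side by side and the genotypes by colour. DM replicate 1 is the highest amygdala point and *Kdm5c*-KO replicate 1 the highest hippocampal point in every panel.

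*Ttr*, transthyretin, carries thyroid hormone and retinol and is the most abundant secreted product of the choroid plexus. Amygdala libraries of WT replicates 1 to 4 had 812, 37.8, 358 and 57.5 normalised counts. *Kmt2a*-HET had 218, 160.1, 153 and 324, *Kdm5c*-KO had 582, 72, 23.6 and 34.9 and DM had 34208, 96.2, 5781 and 29, in the same order of replicates. DM replicates 1 and 3 were above every other amygdala library, and DM replicate 4 was among the lowest. Hippocampal *Ttr* was at 4189, 247, 23509 and 4301 for WT. *Kmt2a*-HET had 1838, 397, 756 and 224, *Kdm5c*-KO had 90929.6, 388, 11163 and 23617 and DM had 292, 22097, 526 and 21160.2. The values varied widely within WT, *Kdm5c*-KO and DM, and all 4 genotypes overlapped. In *Kdm5c*-KO replicate 1, *Ttr* alone took 0.400% of all gene counts of the hippocampal library and ranked 9 among all genes.

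*Mfrp* was at 19, 17, 19.9 and 14.8 in WT amygdala (mean 17.7 ± 2.25, SD, n = 4). *Kmt2a*-HET mice had 22.5, 4.39, 19.8 and 18 (16.2 ± 8.07) and *Kdm5c*-KO mice 21.7, 6.63, 9.43 and 10.3 (12 ± 6.64). In DM amygdala it was at 805, 23.8, 196 and 19.7 (261 ± 372). The DM mean thus came from 2 of the 4 mice, and DM replicates 2 and 4 lay at 19.7 to 23.8, next to the WT range of 14.8 to 19.9. Hippocampal *Mfrp* was at 84.2, 23.9, 247 and 94.2 for WT (112 ± 94.8), and *Kmt2a*-HET mice had 33.9, 22.1, 20.2 and 17.8 (23.5 ± 7.13). The *Kdm5c*-KO values were 2096, 9.37, 245 and 353 (676 ± 958) and the DM values 9.66, 717, 18 and 1002 (436 ± 502). *Kmt2a*-HET was the tightest group, while *Kdm5c*-KO and DM each held both low and high libraries and their SD exceeded their mean.

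*Kl* encodes Klotho, a co-receptor for the hormone FGF23 that is also shed into cerebrospinal fluid, and part of it is made in neurons. In the amygdala, WT, *Kmt2a*-HET and *Kdm5c*-KO libraries had 82.5 to 180.0, and DM libraries had 2637, 238, 595 and 133. DM replicates 1, 2 and 3 were the 3 highest. Hippocampal *Kl* was at 824, 561, 1046 and 517 for WT, while *Kmt2a*-HET had 545, 503, 568 and 651. *Kdm5c*-KO had 6488, 801, 1248 and 1383 and DM had 750.3, 2984, 522 and 3557. The lowest hippocampal value, 503, was above all but 2 of the amygdala values. *Folr1*, the folate receptor that passes folate into cerebrospinal fluid, was near the floor in most amygdala libraries, with a range of 0 to 29.7 over WT and both single mutants, and at 609, 4.41, 119 and 2.07 in DM. Hippocampal *Folr1* was at 73.7, 12, 251 and 60.2 for WT and 23.7, 2.32, 19.3 and 3.82 for *Kmt2a*-HET. *Kdm5c*-KO had 1254, 9.37, 115 and 196 and DM had 6.15, 472, 10.8 and 485, and the genotypes overlapped. *Folr1* overlaps *Anapc15* on the opposite strand, and the strand setting of the counting is not given in the sources used here.

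Among the genes of ion transport and barrier, *Kcnj13* (the inward rectifier potassium channel Kir7.1 of the apical membrane) was at 12.3 to 37.3 in the amygdala of WT and the single mutants and at 316, 41.5, 69.2 and 17.6 in DM. Hippocampal *Kcnj13* was at 15.2, 4.98, 88.8 and 24.4 for WT and 7.9, 3.49, 7.71 and 5.09 for *Kmt2a*-HET, while *Kdm5c*-KO had 921, 6.56, 83.7 and 136 and DM 3.51, 248, 1.8 and 380.4. The *Kmt2a*-HET values were all low, and the hippocampal median was 11.6, below the amygdala median of 20.8. *Clic6*, a member of the chloride intracellular channel family, was detected well above the floor in every amygdala library, at 219 to 786 in WT and the single mutants and 2487, 719, 921 and 582 in DM. Hippocampal *Clic6* was at 129.8, 56.8, 503 and 189 for WT and 148, 24.4, 125 and 29.3 for *Kmt2a*-HET, while *Kdm5c*-KO had 3485, 125, 545 and 659 and DM 48.3, 1198, 56.8 and 1502. Most of these lay below every amygdala value, with a hippocampal median of 139, against an amygdala median of 597. *Cldn2*, the pore-forming claudin of this epithelium, was at 3.77 to 26.2 in the amygdala of WT and the single mutants and at 429.9, 10.6, 50.9 and 7.25 in DM, and reached 954 in the hippocampus. The medians of *Kcnj13* and *Clic6* were higher in the amygdala than in the hippocampus, and those of the other members were lower. For *Otx2* this rested on the scaling, with a median of 0.288 CPM per kb of exon over the amygdala libraries and 0.275 over the hippocampal ones, and 8 of 16 mice had more in the hippocampus.

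*Otx2* was at 5.69 to 51.9 in the amygdala of WT and the single mutants and at 240.1, 28.2, 94.2 and 13.5 in DM. Hippocampal *Otx2* was at 28.1, 6.98, 67.7 and 27.1 for WT and 38.4, 3.49, 23.1 and 2.55 for *Kmt2a*-HET, while *Kdm5c*-KO had 458, 25.3, 55.1 and 74.1 and DM 4.39, 124, 13.5 and 169, again without separation of the genotypes. The antisense RNA *Otx2os1* was at or under 3 counts in 15 of 16 libraries of each region. *Sostdc1*, a secreted antagonist of BMP and WNT signals, was at 389, 14.1, 48 and 23.8 in DM amygdala and at 16.4 to 63.6 in the other genotypes, where WT replicate 1 had the highest value. *Steap1*, of a family of metalloreductases, was near the floor in most amygdala libraries, at 114, 1.76, 22.1 and 2.07 in DM amygdala and 0 to 4.56 in the other genotypes. In the hippocampus *Sostdc1* ranged from 39.5 to 570.1 (median 87) and *Steap1* from 0 to 166 (median 6.38).

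Levels were compared between genes per kilobase of annotated exon, as CPM per kb. In the hippocampus the median was 107 for *Ttr*, 3.4 for *Kl*, 1.5 for *Clic6* and 0.567 for *Mfrp*. *Ttr* was thus far above the other members there. In the amygdala the median of *Clic6*, 7.03 CPM per kb, was next to that of *Ttr*, 6.03, and *Mfrp* was at 0.193. The ranges of *Clic6* and *Ttr* over the 16 amygdala libraries overlapped, at 2.44 to 28.7 and 0.894 to 1305.

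The members also moved by unequal amounts relative to *Ttr*. In the 8 libraries with at least 5000 normalised counts of *Ttr*, 2 from the amygdala and 6 from the hippocampus, *Mfrp* stood at 10.5 to 47.3 normalised counts per 1000 of *Ttr*, lowest in WT hippocampus replicate 3 and highest in DM hippocampus replicate 4. It was at 23.5 per 1000 in DM amygdala replicate 1 and at 23.1 per 1000 in *Kdm5c*-KO hippocampus replicate 1, the libraries with the highest *Mfrp* of each region. *Kl* stood at 44.5 to 168, *Clic6* at 21.4 to 159 and *Folr1* at 8.30 to 22.9 per 1000 of *Ttr* in those libraries.

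**Figure D2:**
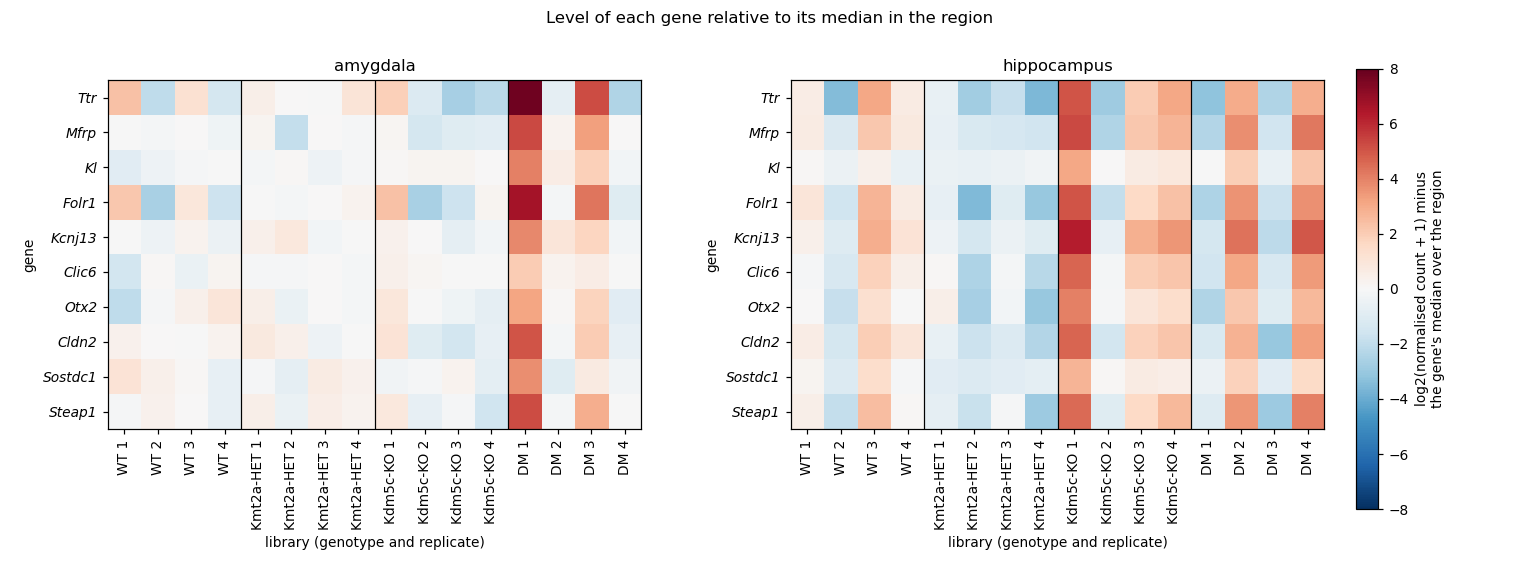
Level of each member (rows) in the 16 libraries of each region (columns), as log2(normalised count + 1) minus the median of that member over the region. DM replicates 1 and 3 in the amygdala and *Kdm5c*-KO replicate 1 and DM replicates 2 and 4 in the hippocampus are columns in which nearly every row is high. WT replicate 3 and *Kdm5c*-KO replicates 3 and 4 in the hippocampus lie above the median in every row too.

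The members varied together across libraries. In the hippocampus, Pearson r of the 45 pairs of members over 16 libraries was 0.803 to 0.979, with a median of 0.938 (log2 scale, median Spearman rho 0.903). In the amygdala it was 0.468 to 0.947 with a median of 0.816, and the median Spearman rho was 0.503. Without DM replicates 1 and 3 the amygdala median of r was 0.199, with a range of -0.772 to 0.809 over the remaining 14 libraries, so that the amygdala correlations rested largely on those 2. The values of a library share its depth and its dissection, and these correlations are a description.

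The genes most like the mean of the members included other choroid plexus genes. In the amygdala the 5 with the highest Pearson r over 16 libraries were *Enpp2* (autotaxin, a secreted lysophospholipase, r = 0.947), *Aqp1*, *Col8a2*, *Tmem72* and *Slc4a5*. In the hippocampus they were *Tmem72* (r = 0.986), *F5*, *Prlr*, *Sulf1* and *Col8a2*. Only genes with a mean of at least 10 normalised counts in the region were ranked. Some, such as *Slc4a5* in the amygdala (median 4.39, highest 477 in DM replicate 1), reach that mean through the high DM libraries. Genes with r over 0.8 numbered 55 of 16593 for the amygdala and 138 of 16398 for the hippocampus. Among them were 9 and 10 of the members, which make up the mean, and 17 of 25 and 26 of 28 genes of a wider list of choroid plexus genes. Of that list of 28 genes, which holds no member, 27 had their highest amygdala value in DM replicate 1, the exception being *Slc12a2* in DM replicate 3, and 28 of 28 had their highest hippocampal value in *Kdm5c*-KO replicate 1. The amygdala likeness rested on the same 2 libraries: without DM replicates 1 and 3, 9 of 16593 genes had r over 0.8 with the mean of the members, 0 of 10 members and 0 of 25 genes of the wider list among them, and r of *Enpp2* was 0.464. Over those 14 libraries the 28 genes peaked in 12 different libraries, and the 10 members in 4. Its 6 most abundant genes were *Enpp2*, *Slc12a2* (the NKCC1 cotransporter), *Slc4a2* (an anion exchanger), *Ace*, *Col9a3* and *Cab39l*. *Enpp2* was at 21624, 2146, 6319 and 1902 in DM amygdala, where DM replicates 1 and 3 were again the highest of the region.

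Some markers of neighbouring cell types, not all of those listed, were high in part of the same libraries. The summed level of 10 ependymal genes was highest in DM replicate 1 in the amygdala (1896, median 764) and in *Kdm5c*-KO replicate 1 in the hippocampus (2467, median 692), yet *Kdm5c*-KO amygdala replicate 1 had 1759 with *Ttr* at only 582. Of these 10 genes, 6 were highest in DM amygdala replicate 1 and 4 in *Kdm5c*-KO amygdala replicate 1, and 10 were highest in *Kdm5c*-KO hippocampus replicate 1. The summed level of 10 meningeal and fibroblast genes was also highest in those libraries, with 7660 against a median of 4108 in the amygdala and 13401 against a median of 3140 in the hippocampus. Most of both sums came from *Igf2*, with 3704 and 6804, and *Igfbp2*, with 2277 and 4165. These were the only 2 of the 10 genes with their highest amygdala value in DM replicate 1, whereas 7 of 10 were highest in *Kdm5c*-KO replicate 1 in the hippocampus. DM amygdala replicate 3, however, had 2584, the lowest meningeal sum of the amygdala. The sums of 6 endothelial genes were 2774 to 4394 in amygdala and 2809 to 4871 in hippocampal libraries, those of 5 haemoglobin and erythrocyte genes 3334 to 13419.7 and 3771 to 10029.7, and those of 5 neuronal genes 51889 to 86700.3 and 87978 to 132002. The highest libraries of these 3 lists were others than DM amygdala replicate 1 and *Kdm5c*-KO hippocampus replicate 1, although the endothelial sum was highest in DM amygdala replicate 3 (4394) and in DM hippocampus replicate 2 (4871), both high in the members. The part of these cell types in the levels of the members was not tested. In bulk tissue, fewer cells of a type and less RNA per cell cannot be told apart.

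The single mutants were compared with WT in the amygdala to ask whether either mutation alone moved these genes. For *Kmt2a*-HET, 0 of 10 members were called (DESeq2, adjusted *p* under 0.1), 0 had an unadjusted *p* under 0.05, and the quasi-likelihood test of edgeR called 0 of the 9 it tested, *Steap1* being under its count filter. Over all genes 0.00988% were called, and 926 genes had an unadjusted *p* under 0.05. Log2 fold changes ran from -0.87 to 0.47 with 5 of 10 above 0. For *Kdm5c*-KO, whose amygdala values had been used in the choice of *Mfrp*, 0 of the 9 other members were called and 0 had an unadjusted *p* under 0.05 (1165 of all genes), edgeR called 0 of 8, and DESeq2 called 0.751% and edgeR 0.393% of all genes. Their log2 fold changes ran from -0.83 to 0.46. That of *Mfrp* was -0.56, a description with no test. The 9 others varied with *Mfrp* in the amygdala, so their test is not free of the choice. In DESeq2 the spread of each gene was fitted over all amygdala libraries, so the wide DM values enter the error of both comparisons. The SE of the log2 fold changes ran from 0.43 for *Clic6* to 1.63 for *Folr1* in *Kmt2a*-HET. For the same genes it was 0.43 and 1.62 in *Kdm5c*-KO. With errors of this size, 0 calls do not show that the members were unmoved. Of the 28 other choroid plexus genes, 1 was called, *Col9a3*, a fibril-associated collagen chain, higher in *Kdm5c*-KO (log2 fold change 1.0, SE 0.23, adjusted *p* = 0.0038). With spike-in size factors *Col9a3* was not called (1.08, adjusted *p* = 1).

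The DM amygdala is described with no test, because *Mfrp* had been singled out by its DM value against *Kdm5c*-KO in these libraries. The log2 fold change of *Mfrp* in DM was 3.89 against WT, 4.45 against *Kdm5c*-KO and 4.01 against *Kmt2a*-HET. All 10 members were above 0 in each comparison, with medians of 3.04, 3.04 and 2.88 and a largest value of 5.81 for *Ttr* against *Kdm5c*-KO. Without DM replicate 1 the medians were 1.28, 1.14 and 0.99. Without DM replicates 1 and 3 they were -0.24, -0.12 and -0.40, and *Mfrp* was at 0.31, 0.88 and 0.41. The higher DM medians in the amygdala were thus carried by 2 mice, although DM replicate 2 was also above the other genotypes for *Mfrp*, *Kl* and *Kcnj13*.

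The hippocampal libraries had not been used in that choice and were tested. For *Kmt2a*-HET against WT, 0 of 10 members were called in DESeq2, where 0% of all genes were called (715 genes at an unadjusted *p* under 0.05), and edgeR called 0. All 10 log2 fold changes were below 0, with a median of -2.30 against 0 over all genes, and 2 members, *Ttr* (log2 fold change -3.33, SE 1.39, adjusted *p* = 1.0) and *Folr1*, had an unadjusted *p* under 0.05. Without WT replicate 3, the WT mouse with the most *Ttr*, the median was -1.22 and *Ttr* was at -1.85. For *Kdm5c*-KO against WT, 0 of 10 were called and 1.01% of all genes (1657 at an unadjusted *p* under 0.05). All 10 log2 fold changes were above 0, with a median of 2.08, and 5 members had an unadjusted *p* under 0.05 in DESeq2 and 4 in edgeR, which called 0 members and 0.409% of all genes. *Mfrp* (log2 fold change 2.59, SE 1.26, adjusted *p* = 0.576) and *Kl* (log2 fold change 1.75, SE 0.68, adjusted *p* = 0.338) were among the 5. Without *Kdm5c*-KO replicate 1 the median was 0.64, *Mfrp* was at 0.85 and *Kl* at 0.64, and without WT replicate 3 the median was 3.14.

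DM against WT in the hippocampus gave 0 members called of 10, beside 0.875% of all genes, a median log2 fold change of 1.34 and 1 member at an unadjusted *p* under 0.05, by DESeq2 and by edgeR alike (1590 of all genes by DESeq2). The median was 0.82 without DM replicate 4 and 2.12 without WT replicate 3. edgeR called 0 members and 0.368% of all genes. DM against *Kdm5c*-KO gave 0 called and 0 at an unadjusted *p* under 0.05 by both tools, with 0.0067% of all genes called by DESeq2 (1352 at an unadjusted *p* under 0.05) and a median of -0.74. That median had no stable direction, with 0.71 without *Kdm5c*-KO replicate 1 and -1.47 without DM replicate 4. Of the 5 comparisons run in the hippocampus, DM against *Kmt2a*-HET had the largest median, with 3.63 and a range of 1.78 to 4.70. Here too 0 of 10 members were called, with 0.603% of all genes called and 1041 at an unadjusted *p* under 0.05, although 9 of 10 had an unadjusted *p* under 0.05 in DESeq2 and in edgeR, which called 0 members and 0.315% of all genes. With the replicate number as a block, a number that marks no animal shared by the genotypes, 6 of 10 were called, beside 1.46% of all genes. The smallest adjusted *p* belonged to *Kcnj13* (log2 fold change 4.70, SE 1.39, adjusted *p* = 0.113), and *Mfrp* followed (log2 fold change 4.21, SE 1.27, adjusted *p* = 0.139). The comparisons share their WT, *Kdm5c*-KO, *Kmt2a*-HET or DM libraries with each other, and the members are not independent of each other. Without DM replicate 1 or without DM replicate 3, 2 members, *Mfrp* and *Kcnj13*, were called higher in DM than in *Kmt2a*-HET. The adjusted *p* of *Mfrp* was 0.0656 and 0.0953 (DESeq2), and 100 and 83 of all genes were called. Both mice were low in the hippocampus, so leaving either out raises the DM level by construction. These calls are therefore no further evidence of a difference. Of the 28 other choroid plexus genes, 1 passed in this comparison, *Tmem72* (log2 fold change 3.96, SE 1.14, adjusted *p* = 0.0912), which was not called with spike-in size factors (3.47, adjusted *p* = 0.96).

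**Figure D3:**
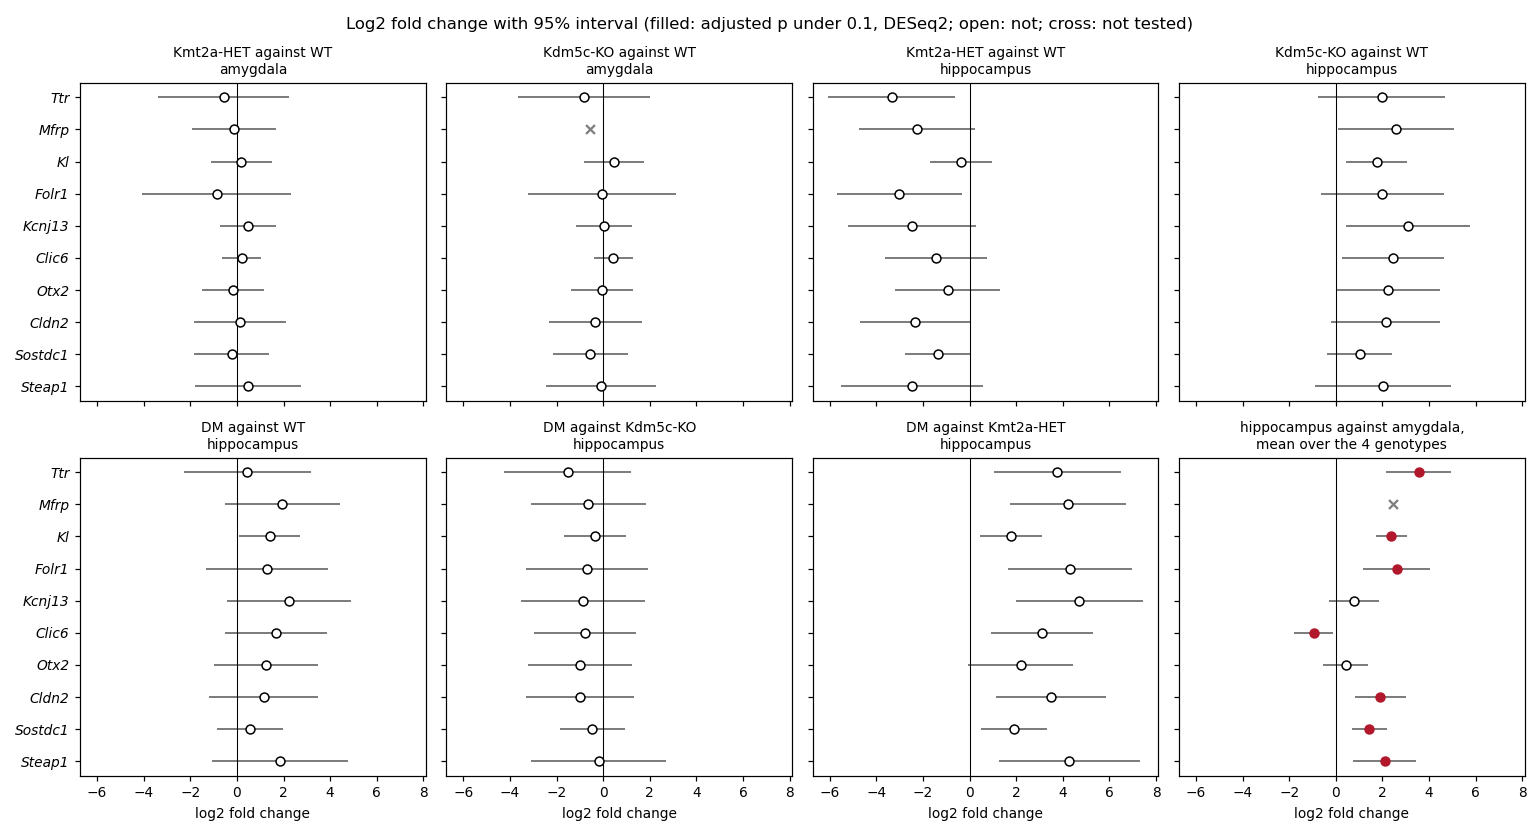
Log2 fold changes of the 10 members with 95% intervals in the comparisons tested (DESeq2, 4 mice per genotype). Filled points passed an adjusted *p* under 0.1, which 0 members did between genotypes and 7 of the 9 members other than *Mfrp* did between the regions. Crosses mark *Mfrp* where amygdala values used in its choice enter, without an interval or a test.

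Whether the effect of a mutation differed between the regions was tested as a difference of the hippocampal and amygdala fold changes. For *Kmt2a*-HET 0 of 10 members were called, beside 0% of all genes (570 at an unadjusted *p* under 0.05), and 0 members had an unadjusted *p* under 0.05. For *Kdm5c*-KO 0 of the 9 members other than *Mfrp* were called, beside 0.0125% of all genes (639 at an unadjusted *p* under 0.05), and 1 of them, *Kcnj13*, had an unadjusted *p* under 0.05. edgeR called 0 of these members in either test and found 0 at an unadjusted *p* under 0.05. *Mfrp* in *Kdm5c*-KO and the opposite places of the DM mice in the regions were not tested, since those amygdala values had been used in the choice. The other members varied with *Mfrp* in the amygdala, so their *Kdm5c*-KO test is not free of that choice either.

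Between the regions, averaged over the 4 genotypes, 6 of the 9 members other than *Mfrp* were higher in the hippocampus and 1 was lower (DESeq2, adjusted *p* under 0.1). The DM and *Kdm5c*-KO amygdala values that enter this mean had been used in the choice of *Mfrp*, which is given here as a description. The other 9 members varied with *Mfrp* in the amygdala (Pearson r 0.695 to 0.947), so their tests are not free of that choice. Of all genes 47% were called, 22.7% higher and 24.2% lower, and 11100 had an unadjusted *p* under 0.05. edgeR also called 7 of these 9, beside 56.8% of all genes. *Kl* differed with the smallest error (log2 fold change 2.38, SE 0.33, adjusted *p* = 1.09e-11) and was higher in the hippocampus of 14 of 16 mice. *Ttr* (log2 fold change 3.55, SE 0.71, adjusted *p* = 2.81e-06) was higher in 13 of 16 mice, the exceptions being *Kmt2a*-HET replicate 4 and DM replicates 1 and 3. *Mfrp*, at a log2 fold change of 2.44 with no test, was higher in the same 13 mice. Averaged over WT and *Kmt2a*-HET only, 3 members were higher and 1 lower, beside 36.4% of all genes called: *Ttr* (3.29, adjusted *p* = 0.00459), *Kl* (2.28, adjusted *p* = 1.3e-05) and *Folr1* (2.31, adjusted *p* = 0.0796) were higher and *Clic6* lower (-1.98, adjusted *p* = 0.00584), while *Mfrp* did not pass (1.60, adjusted *p* = 0.114). Without DM amygdala replicates 1 and 3, which were left out for their high amygdala values so that no test is given, the log2 fold changes over the 4 genotypes had a median of 2.91, with *Mfrp* at 3.34, *Kcnj13* at 1.27 and *Clic6* at -0.74.

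The other members higher in the hippocampus were *Folr1* (log2 fold change 2.62), *Steap1* (2.10), *Cldn2* (1.91) and *Sostdc1* (1.44), in 12 to 13 of 16 mice. *Clic6* was lower (log2 fold change -0.96, SE 0.43, adjusted *p* = 0.0631) and was higher in the hippocampus in 5 of 16 mice only. This call was lost without DM amygdala replicate 1 (log2 fold change -0.79, adjusted *p* = 0.143), without WT hippocampus replicate 2 (-0.88, adjusted *p* = 0.10, at the threshold) and with spike-in size factors (-0.49, adjusted *p* = 0.354). *Kcnj13* (log2 fold change 0.79, SE 0.55, adjusted *p* = 0.264) and *Otx2* (log2 fold change 0.43, SE 0.49, adjusted *p* = 0.535) did not pass. *Kcnj13* passed without DM amygdala replicate 1 (1.13, adjusted *p* = 0.0842) and with spike-in size factors (1.24, adjusted *p* = 0.0507), and *Otx2* with spike-in size factors (0.94, adjusted *p* = 0.0902). Over WT and *Kmt2a*-HET only both turned below 0, *Kcnj13* to -0.63, adjusted *p* = 0.609, and *Otx2* to -0.24, adjusted *p* = 0.851. Spike-in scaling moved the median of all genes by 0.65 towards the hippocampus and the share of calls that were higher from 48.4% to 92.8%. It raised the number of all genes called from 10965 to 14134. Of the 28 other choroid plexus genes, 15 were higher and 4 lower in the hippocampus, the latter being *Ace*, *Prlr*, *Slc13a4* and *Sulf1*, and with spike-in size factors 22 were higher and 0 lower. Over WT and *Kmt2a*-HET only, 4 were higher and 5 lower.

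**Figure D4:**
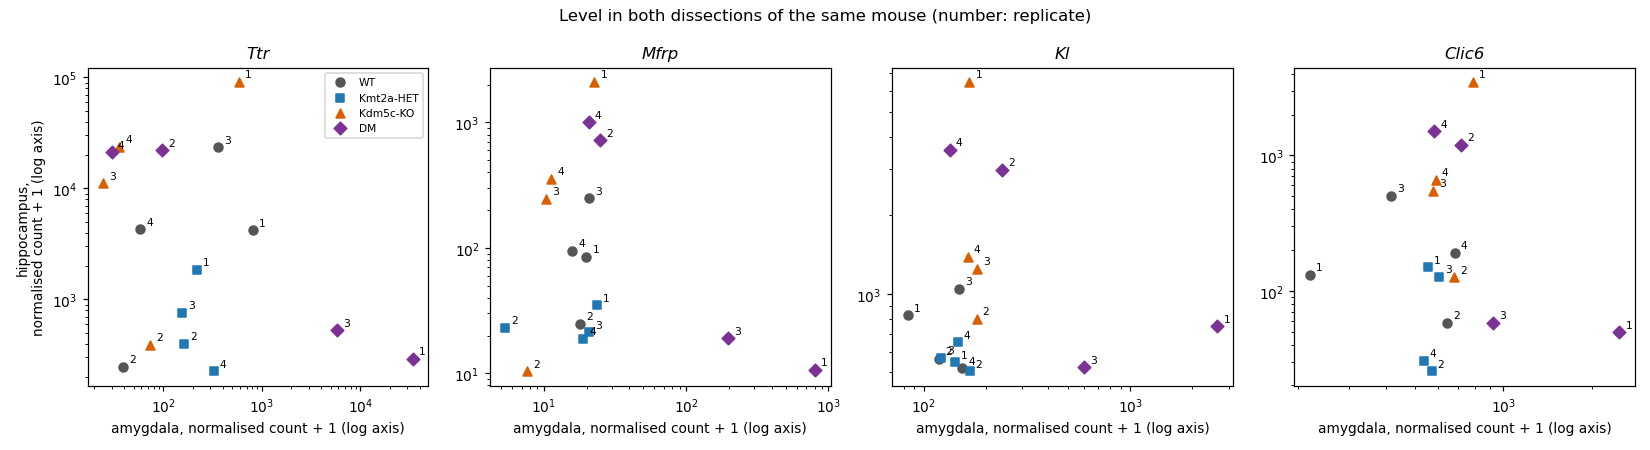
Amygdala level against hippocampal level of the same mouse for *Ttr*, *Mfrp*, *Kl* and *Clic6*, both as normalised count + 1 on log axes, with 1 point per mouse, the genotypes by colour and marker, and the replicate number beside each point. DM replicates 1 and 3 have the 2 highest amygdala levels in each panel, and hippocampal levels below the median for *Ttr*, *Mfrp* and *Clic6*, whereas *Kl* of DM replicate 1 is near the hippocampal median.

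Levels in the 2 regions of the same mouse are a description, with no test, because amygdala values of DM and *Kdm5c*-KO had been used in the choice. Over 16 mice, Pearson r of the log2 levels was -0.318 to -0.0809 over the members and Spearman rho -0.374 to 0.0676, and for *Mfrp* r was -0.25 and rho 0.0676. Taken as deviations from the mean of each genotype, r was -0.569 to -0.134 and rho -0.65 to -0.0647, below 0 for 10 of 10 members. Without the 2 mice farthest from the median amygdala level, r of the levels was -0.434 to 0.386, and above 0 for 8 of 10 members. Without them r of the deviations was -0.472 to 0.301, and above 0 for 4 of 10 members.

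**Figure D5:**
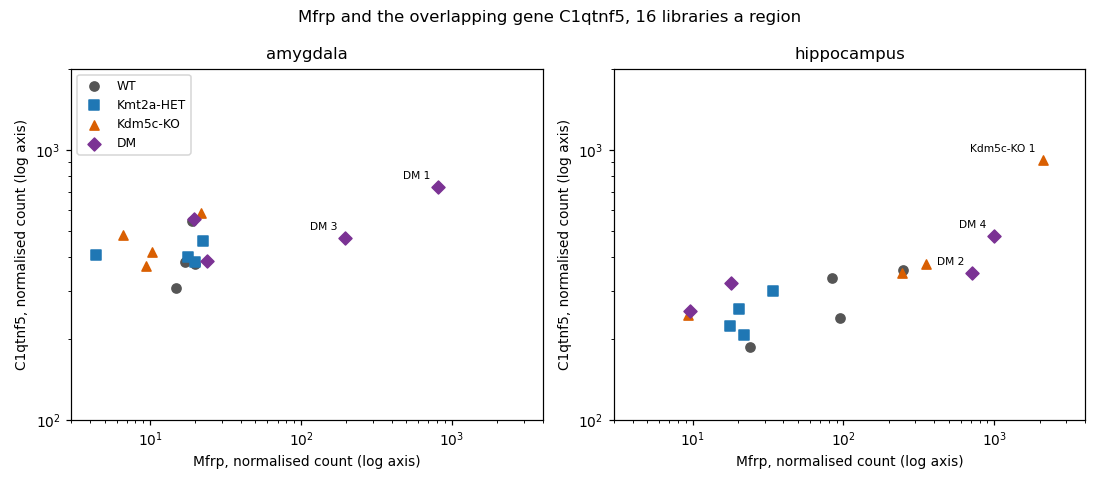
Normalised count of *C1qtnf5* against that of *Mfrp*, whose end it overlaps, in the 16 libraries of each region on log axes. *Mfrp* spans 4.39 to 805 over amygdala and 9.37 to 2096 over hippocampal libraries, whereas *C1qtnf5* stays within 308 to 730 and 186 to 918.

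Reads over the shared end of the genes could be given to *Mfrp* or to *C1qtnf5*, a secreted collagen-like protein, so that their split is uncertain. *C1qtnf5* spanned 308 to 730 over amygdala libraries (median 413) and 186 to 918 over hippocampal ones (median 311), a smaller range than that of *Mfrp*. Its highest values were in the same libraries as those of *Mfrp*, DM amygdala replicate 1 (730) and *Kdm5c*-KO hippocampus replicate 1 (918), whereas DM amygdala replicate 3 was at 471. Between the regions it was lower in the hippocampus (log2 fold change -0.47, SE 0.14, adjusted *p* = 0.0034), although with spike-in size factors this turned to 0.0911 (adjusted *p* = 0.771). At the level of transcripts, *Mfrp*-201 held 63.5% of the *Mfrp* counts of the amygdala and 73.0% of those of the hippocampus, and *Mfrp*-202 held 28.4% and 21.9%. *Mfrp*-201 had counts in 7 of 16 amygdala libraries, and reached 618 in DM replicate 1, where it held 76.7% of the gene, and 83.6 in DM replicate 3, where it held 42.5%. *Mfrp*-202 held 16.5% and 40.7% in these libraries, and *Mfrp*-205 held 4.23% and 16.7%. The pooled amygdala share was carried by these 2 libraries. In the other 14, *Mfrp*-201 held 34.6% with a median of 0 and *Mfrp*-202 held 60.2% with a median of 8.79 normalised counts.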

How the data were processed

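Per the file headers, the authors deposited expected counts per gene and per transcript for each library. The study's methods give directional oligo-dT libraries with spike-in RNA (ERCC), and the submitters' processing notes name mm10, STAR 2.5.3a and Subread 1.5.0. Those methods name featureCounts on uniquely mapped reads, which gives whole numbers, whereas 7.08% of the deposited values were not whole, so the tool that made them is not known here. The strand setting is not given in the sources used here. Values were rounded, and 53620 of 53715 genes had a GENCODE M21 symbol.

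All genes were fitted with DESeq2 1.42.0 (R 4.3.3, Wald test, unshrunken, 16 libraries of a region, genotype as the only term, Benjamini-Hochberg adjusted *p* under 0.1). Regions were compared in a fit of 32 libraries in 8 groups. The quasi-likelihood test of edgeR 4.0.16, other size factors, filters, blocks and leaving out each library were alternatives. Leaving out both DM amygdala replicates 1 and 3, and the region contrast over WT and *Kmt2a*-HET only, were chosen after the data were seen. Mouse codes pair the regions of 16 of 16 mice. Within a mouse the deviations from group means had a median correlation of 0.123 (16585 genes, 10 of 16 over 0.1), and a mouse block called as many members between the regions. Correlations used log2(normalised count + 1).

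The members, the other lists (28 further choroid plexus genes, ependyma, meninges, endothelium, erythrocytes, neurons, hippocampal and amygdala neurons, retinal pigment epithelium) and the tests were chosen with earlier results of these data known. Named genes were the members, *C1qtnf5*, *Otx2os1*, the 6 most abundant of the 28, the 5 most alike per region and genes of small counts. The scripts were tested on simulated counts of small spread with no outlying library. Those runs do not show how the tests perform on genes as variable as the members.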

Additional observations from a re-analysis of the deposited data

Results flagged for a closer look

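Each library was compared with the other 3 of its group by the gap to the nearest value as a share of the range. A library past Dixon's 95% limit for 4 samples was found in 13 of the 80 combinations of a member, a genotype and a region. In the hippocampus, *Kdm5c*-KO replicate 1 lay far above the other *Kdm5c*-KO mice in normalised counts of *Mfrp* (2096, next 353), *Kl* (6488, next 1383), *Folr1* (1254, next 196), *Kcnj13* (921, next 136), *Clic6* (3485, next 659), *Otx2* (458, next 74.1), *Cldn2* (954, next 172) and *Sostdc1* (570.1, next 136). In the amygdala, DM replicate 1 lay far above the other DM mice for *Ttr* (34208, next 5781), *Cldn2* (429.9, next 50.9) and *Sostdc1* (389, next 48). *Kdm5c*-KO amygdala replicate 1 did so for *Ttr* (582, next 72) and *Cldn2* (26.2, next 7.18). The 13 values fall on 3 libraries. Dixon's limit is one for normal values, whereas these counts are skewed, so no chance rate is set beside the 13. The members also vary together, so the 80 combinations are not independent. The DM and *Kdm5c*-KO amygdala values had been used in the choice of *Mfrp*, with which the other members vary, and the flags there are a description.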

How the results depend on the processing

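The count of members called stayed at 0 in the comparisons of *Kmt2a*-HET and *Kdm5c*-KO with WT and of DM with WT and with *Kdm5c*-KO under all alternatives run. In the hippocampus, DM against *Kmt2a*-HET had 6 members called with the replicate number as a block, where 1.46% of all genes were called, and 0 to 2 when each library was left out. The replicate number marks no shared animal between genotypes, and deviations of equally numbered libraries correlated at a median of 0.0735 in the amygdala and -0.0114 in the hippocampus, with 7 and 6 of 16 libraries closest to their own number. With this replicate block the genes called rose to 325, 507, 249, 506, 480, 402 and 436 in the comparisons in the order of the report, from 3, 144, 0, 196, 170, 2 and 117. With edgeR they were 0, 69, 0, 70, 63, 0 and 54, and with spike-in size factors 1, 22, 1, 17, 6, 0 and 3.

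Between the regions, *Mfrp* not counted, 6 to 7 members were called when each library was left out (6 without WT hippocampus replicate 2), 8 with spike-in size factors and 4 over WT and *Kmt2a*-HET only. Of all genes, 10965 were called in the main fit, 14134 with spike-in size factors and 8276 over WT and *Kmt2a*-HET only. The DM amygdala medians were at most 3.41 against WT, 3.62 against *Kdm5c*-KO and 3.26 against *Kmt2a*-HET, and at least 1.28, 1.14 and 0.99, when 1 library was left out, and -0.24, -0.12 and -0.40 without DM replicates 1 and 3. Spike-in scaling moved the median of all genes by up to -0.71 between genotypes in the hippocampus (DM against *Kdm5c*-KO), where the members then had a median of -1.07. No called value of a member changed its direction in these alternatives. Uncalled values did, such as *Kcnj13* (-0.63) and *Otx2* (-0.24) between the regions over WT and *Kmt2a*-HET only, and the median of DM against *Kdm5c*-KO without *Kdm5c*-KO hippocampus replicate 1 (0.71, from -0.74). *C1qtnf5*, not a member, was called lower in the hippocampus and turned to 0.0911 with spike-in size factors. With only the groups compared in the fit, 2, 90, 2, 207, 324, 42 and 110 genes were called, with no outlier filter 5 for DM against *Kdm5c*-KO, and when each library was left out 0 to 88, 95 to 274, 0 to 2, 110 to 290, 100 to 255, 1 to 124 and 79 to 110. Why these values moved was not tested. The 4 mice per genotype limit the precision.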

Other observations

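Of the 10 genes of the meningeal and fibroblast list, 7 had their highest hippocampal value in *Kdm5c*-KO replicate 1, *Lum* and *Ogn* in *Kmt2a*-HET replicate 1 and *Slc22a6* in *Kmt2a*-HET replicate 2. *Igf2*, insulin-like growth factor 2, was at 6804 normalised counts in *Kdm5c*-KO hippocampus replicate 1 against a median of 1204, and *Igfbp2*, which binds it, at 4165 against 892. *Dcn*, the fibroblast proteoglycan decorin, was at 1076 there against a median of 213.

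Genes of the retinal pigment epithelium, the other tissue known for *Mfrp*, had summed levels of 296 to 606 over the amygdala libraries and of 289 to 666 over those of the hippocampus. Their highest libraries were DM replicate 1 in the amygdala and *Kdm5c*-KO replicate 4 in the hippocampus. Both sums were mostly *Rlbp1*, with a median of 356 beside a median sum of 452 in the amygdala and 418 beside 462 in the hippocampus. *Tyr*, tyrosinase, had a median of 0 in both regions, and *Rpe65*, the isomerase of the visual cycle, had a median of 23.8 in the amygdala and 6.3 in the hippocampus.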
